A study of Homo sapiens with 16 samples.

Results

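Integrins are receptors on the cell surface that bind matrix and plasma proteins or other cells, and 10 of their subunit genes were followed here through 72 h of phorbol ester in K562 cells. The 10 are 6 alpha subunit genes (ITGA2B, ITGA2, ITGA4, ITGA5, ITGA6 and ITGAV) and 4 beta subunit genes (ITGB1, ITGB2, ITGB3 and ITGB5), chosen by name from the 35052 genes with reads assigned by transcript. All 10 were among the 17559 genes that passed the filter on low counts. K562 is an established human leukaemia line, labelled wild type, and all libraries came from it. The labels describe treatment with 25 nM phorbol 12-myristate 13-acetate (PMA), an activator of protein kinase C, meant to induce megakaryocyte differentiation. RNA was taken at the start (0 h), after 0.5, 1.5, 3 and 6 h on the first day, and then after 24, 48 and 72 h, with 2 libraries at each time and 16 libraries in all. The medium was changed after 24 h and 48 h, and the 0 h libraries served as the control for every later time, so PMA and time in culture cannot be told apart. No label says that the 2 libraries of a time point came from separate cultures, so the p-values measure the spread between these libraries, which may be technical.

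An integrin is a pair of an alpha and a beta subunit, and the pair decides what it binds. ITGA2B and ITGB3 encode the αIIb and β3 subunits of the fibrinogen receptor of megakaryocytes and platelets, and αIIb marks that lineage. The β3 subunit also pairs with αV (ITGAV), as does β5 (ITGB5), in receptors for vitronectin and other matrix proteins. The β1 subunit (ITGB1) pairs with α2 (ITGA2) to bind collagen, with α4 (ITGA4) to bind VCAM1 and fibronectin, with α5 (ITGA5) to bind fibronectin and with α6 (ITGA6) to bind laminin. β2 (ITGB2) is the common subunit of the leukocyte integrins.

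The libraries held 27285773 to 54056289 estimated reads. Values below are reads scaled to library size by the TMM method (CPM), unless TPM, which also accounts for transcript length, is named. The 8 markers fixed for the erythroid leukaemic state of K562 (among them GATA1, TAL1, HBG1 and HBG2) all had more than 3 reads at 0 h and at 72 h, with a summed level of 1776 to 2011 CPM at 0 h and 1357 to 1819 CPM at 72 h. Among 12 megakaryocyte and platelet markers, GP9 and PF4 were at or under 3 reads at 0 h and still at 72 h. The summed level of these 12, which include ITGA2B and ITGB3, was 70.0 to 105 CPM at 0 h and 5459 to 6210 CPM at 72 h. Among markers of other cell types, the summed level of 8 for monocytes and macrophages went from 138 to 159 CPM at 0 h to 225 to 252 CPM at 72 h, that of 5 for T and B lymphocytes from 8.72 to 11.1 CPM to 18.5 to 18.8 CPM, that of 5 for fibroblasts and epithelia from 55.6 to 61.7 CPM to 253 to 270.2 CPM, and that of 3 for endothelium from 0.0644 to 0.246 CPM to 2.25 to 2.93 CPM. Of those 5, the mean level of the fibroblast marker COL1A1 was 3.46 CPM at 0 h and 207 CPM at 72 h, while the epithelial markers had lower means at 72 h, EPCAM at 17.9 against 44.9 CPM and CDH1 at 2.25 against 4.14 CPM. Of the defining genes of those types, MS4A1 was at or under 3 reads in both groups, CSF1R, CD79A, PDGFRB, CDH5 and KDR at 0 h. The part of any such cells in the results was not tested, and in these bulk libraries fewer cells with a transcript and less of it per cell cannot be told apart. Antisense RNA genes annotated opposite ITGA2, ITGA5, ITGA6, ITGAV, ITGB2, ITGB3 and ITGB5, and a long noncoding RNA gene opposite ITGB1, were not analysed here. Whether reads were assigned by strand is not given, so reads from these genes cannot be told apart from those of the integrin genes.

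Over the whole course 9 of the 10 integrin genes differed between times (edgeR quasi-likelihood test, Benjamini-Hochberg adjusted p under 0.05), where 82.9% of all genes did. The exception was ITGB2 (adjusted p = 0.111). At 0.5 h none of the 10 passed against 0 h, where 0.171% of all genes did (0.165% higher and 0.0057% lower), and none did with DESeq2. Before adjustment 2 of them, ITGA2B and ITGB1, had p under 0.05. At 1.5 h 2 passed against 17.1% of all genes, ITGB1 higher (9.05% of all genes were) and ITGA5 lower (8.05%). At 3 h 7 of the 10 passed against 42% of all genes, 6 higher (21.5%) and 1 lower (20.5%). At 6 h the count was 9 against 57.2%, 7 higher (27.8%) and 2 lower (29.4%). At 24 h all but ITGB2 passed (9, beside 58.3% of all genes), 7 higher (31.7%) and 2 lower (26.6%). All but ITGB2 passed at 48 h too (9, beside 54.3%), 7 higher (30.2%) and 2 lower (24.1%). At 72 h it was 8 against 58.6%, 7 higher (31.7%) and 1 lower (26.9%). The 7 higher at 72 h were ITGB3, ITGA6, ITGA2, ITGB5, ITGAV, ITGB1 and ITGA5, and the 1 lower was ITGA4. The median log2 fold change of the 10 at 72 h was 2.16, beside -0.03 for all genes tested.

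**Figure D1:**
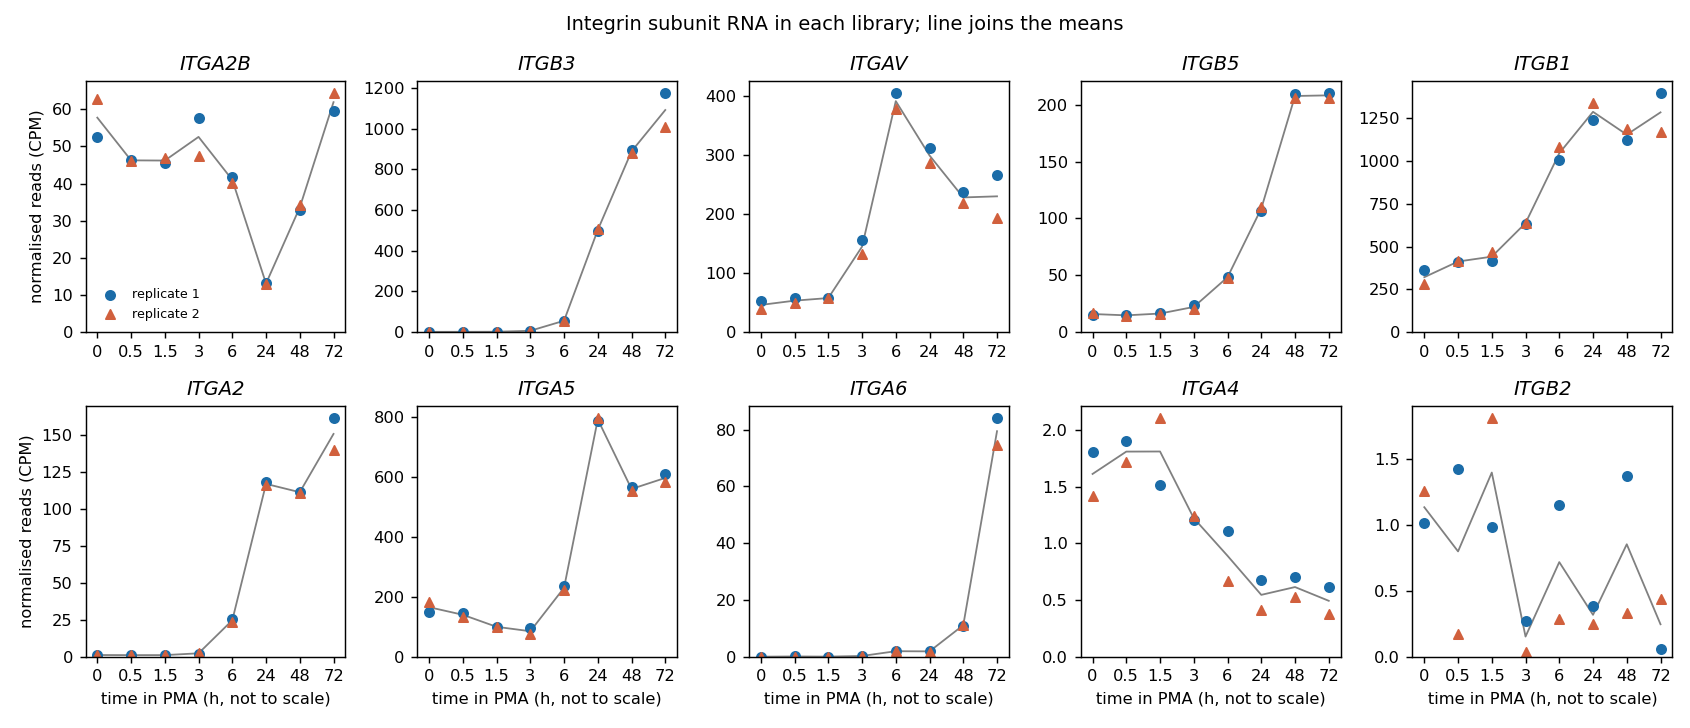
Normalised reads (CPM, linear axes from 0, one scale per gene) of the 10 integrin genes in each library at the 8 time points, circles for replicate 1 and triangles for replicate 2, with a line through the means. ITGB3 and ITGA6 were highest at 72 h, ITGAV at 6 h and ITGA5 at 24 h, ITGA2B was lowest at 24 h, and the paired ITGB2 points lie far apart.

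**Figure D2:**
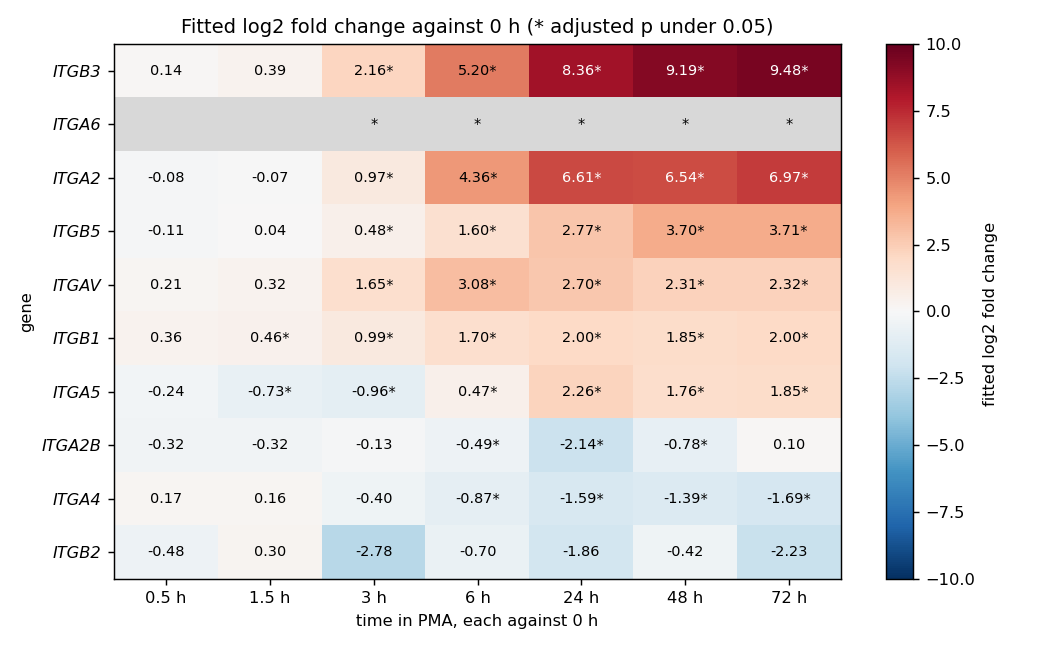
Fitted log2 fold change of each integrin gene (rows) at 7 times (columns) against 0 h, with an asterisk where the adjusted p was under 0.05. Grey cells mark ITGA6, whose fitted values depend on the prior count because its 0 h libraries held 0 and 2 reads.

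Promoter sequence was at hand in RefSeq (GRCh38.p14) for 8 of the 10 genes, in 13 windows of 300 bases, 250 before and 50 after a start. ITGB3 and ITGB2 had no entry. The windows and all 35116 in the table were searched on both strands for 5 short motifs: TGANTCA of AP-1, which PMA activates through protein kinase C, AGATAA of GATA factors, CCGGAA of ETS factors, TGTGGT of RUNX factors and GGGCGG of SP1. These were in 7.71%, 10.3%, 17.2%, 13.1% and 45.0% of all windows. The 4 stretches below are shown because they belong to the αIIb gene and to 3 genes that rose. They give the bases before the start on the gene's strand, 5′ to 3′, without any base of an annotated exon, and capitals mark matches to the 5 motifs or their reverse complements. They are chr17:44389650-44389899 (minus strand) for ITGA2B, chr5:52989102-52989325 (plus) for ITGA2, chr3:124901419-124901668 (minus) for ITGB5 and chr10:32958233-32958480 (minus) for ITGB1.
ITGA2B: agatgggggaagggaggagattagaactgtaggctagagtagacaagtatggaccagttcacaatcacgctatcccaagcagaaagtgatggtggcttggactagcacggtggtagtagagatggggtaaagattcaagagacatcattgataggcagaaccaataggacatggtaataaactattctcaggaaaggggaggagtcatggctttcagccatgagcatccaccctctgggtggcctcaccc
ITGA2: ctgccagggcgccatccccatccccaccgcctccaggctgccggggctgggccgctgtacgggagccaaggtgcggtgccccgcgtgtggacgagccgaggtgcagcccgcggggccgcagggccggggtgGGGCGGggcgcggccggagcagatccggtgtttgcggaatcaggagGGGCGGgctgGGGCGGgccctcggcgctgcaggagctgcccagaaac
ITGB5: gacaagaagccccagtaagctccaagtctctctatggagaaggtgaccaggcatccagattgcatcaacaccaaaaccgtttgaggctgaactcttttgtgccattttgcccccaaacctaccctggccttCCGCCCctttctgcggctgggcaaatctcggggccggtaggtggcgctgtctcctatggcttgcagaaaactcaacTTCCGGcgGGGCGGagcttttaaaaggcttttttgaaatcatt
ITGB1: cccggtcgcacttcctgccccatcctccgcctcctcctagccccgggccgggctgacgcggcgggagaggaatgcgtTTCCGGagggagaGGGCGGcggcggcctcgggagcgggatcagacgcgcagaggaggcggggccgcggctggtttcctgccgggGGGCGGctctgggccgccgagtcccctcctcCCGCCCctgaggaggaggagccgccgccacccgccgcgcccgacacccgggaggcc
The ITGA2B window held no match to any of the 5, which says only that these letters are not in this stretch. The window lies wholly upstream of the annotated 5′ end of the gene, at chr17:44389505 on the minus strand. The bases between that end and the window were not searched, so the result does not cover them. The ITGA2 window held GGGCGG 4 times on either strand, of which 3 lie in the stretch shown. The ITGB5 stretch holds CCGGAA beginning 43 bases before the start and GGGCGG at 119 and 35 bases, and the ITGB1 stretch holds CCGGAA at 173 bases and GGGCGG at 160, 89 and 58 bases. TGANTCA was found in 1 of the 13 windows, that of ITGA5, beginning 6 bases before its start. AGATAA was found in 1 window of ITGAV, and TGTGGT at 1 site that both overlapping windows of ITGA6 contain. A match is a run of letters, and no binding was measured.

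ITGB3, the β3 subunit gene (chr17:47253846-47311816 on GRCh38, plus strand), rose from under 2 CPM to rank 2 of the 10 genes in TPM at 72 h. Its level was 1.75 and 1.29 CPM at 0 h (57 and 40 reads), 1.64 and 1.72 CPM at 0.5 h, and 2.02 and 1.96 CPM at 1.5 h. It was 7.43 and 6.16 CPM at 3 h, 54.97 and 57.2 CPM at 6 h, and 496 and 508 CPM at 24 h. At 48 h it was 897 and 880 CPM, and at 72 h 1176 and 1008 CPM. The libraries from 3 h on lay above all earlier ones and those of successive times from 3 h on did not overlap. Against 0 h the log2 fold change was 2.16 (SE 0.16, edgeR adjusted p = 1.27e-07) at 3 h, 5.20 (SE 0.15, adjusted p = 5.94e-12) at 6 h and 9.48 (SE 0.16, adjusted p = 7.13e-14) at 72 h. Most of the later gain came between 3 and 24 h, with steps of 3.04 from 3 to 6 h and 3.16 from 6 to 24 h on the log2 scale. The step from 48 to 72 h was 0.30 (SE 0.11, adjusted p = 0.253) and passed with the GC trend of each library removed (0.36, adjusted p = 0.0338). The main coding transcript, ITGB3-201, held 93.6% of the gene's TPM at 72 h. A readthrough gene without a symbol (ENSG00000259753) shares its strand and exons, and the 325 reads assigned to it over all libraries equalled 0.182% of the ITGB3 reads.

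ITGA2B, the αIIb gene (chr17:44372180-44389505 on GRCh38, minus strand), took a different course, a trough at 24 h and a return. It was 52.6 and 62.9 CPM at 0 h, 46.4 and 46.1 CPM at 0.5 h, 45.6 and 46.8 CPM at 1.5 h, and 57.8 and 47.4 CPM at 3 h. It was 41.7 and 40.3 CPM at 6 h, 13.2 and 12.9 CPM at 24 h, 33.0 and 34.1 CPM at 48 h, and 59.4 and 64.4 CPM at 72 h. Both 24 h libraries lay below every other library, and the 72 h libraries overlapped those at 0 h. The fitted level at 24 h was 22.7% of that at 0 h (-2.14 on the log2 scale, SE 0.11, edgeR adjusted p = 1.96e-09). It then rose by 1.36 from 24 to 48 h (adjusted p = 4.55e-06) and by 0.88 from 48 to 72 h (adjusted p = 0.00111). The difference at 72 h against 0 h was 0.10 (95% interval -0.13 to 0.33, adjusted p = 0.432). With the GC trend removed it was 0.33 and passed (adjusted p = 2.58e-04). The 48 to 72 h step did not pass with counts scaled by transcript length (0.71, adjusted p = 0.0608). The lower level at 6 h (-0.49, adjusted p = 0.00124) did not pass with the GC trend removed (-0.11, adjusted p = 0.134).

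The αIIb trough was seen in the main coding transcript as well as in the gene total. ITGA2B-201, that transcript, was at 20.6 and 21.4 TPM at 0 h, 14.2 and 12.5 TPM at 6 h, 4.25 and 3.90 TPM at 24 h, 12.4 and 12.0 TPM at 48 h, and 23.9 and 25.4 TPM at 72 h. Its 24 h values were the lowest of the 16. Transcripts of the gene not annotated as protein coding held 32.2% of its TPM at 0 h and 11.8% at 6 h, then 36.8% (24 h), 43.6% (48 h) and 32.1% (72 h). Salmon divides reads among transcripts by a model, so these shares are estimates.

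RNA for β3 passed from far below to far above that of its αIIb partner. In TPM the ratio of ITGB3 to ITGA2B was 0.0207 and 0.0144 at 0 h, 0.0983 and 0.0914 at 3 h, and 1.11 and 1.03 after 6 h. By 24 h the ratio was 24.0 and 26.7, by 48 h it was 15.8 and 12.6, and by 72 h it was 11.8 and 9.43. The ratio was thus near 1 at 6 h and highest at 24 h, when ITGB3 averaged 189 TPM and ITGA2B 7.49 TPM. From 24 to 48 h both genes rose, ITGA2B by 1.36 and ITGB3 by 0.82 on the log2 scale, and whether these steps differed was not tested.

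**Figure D3:**
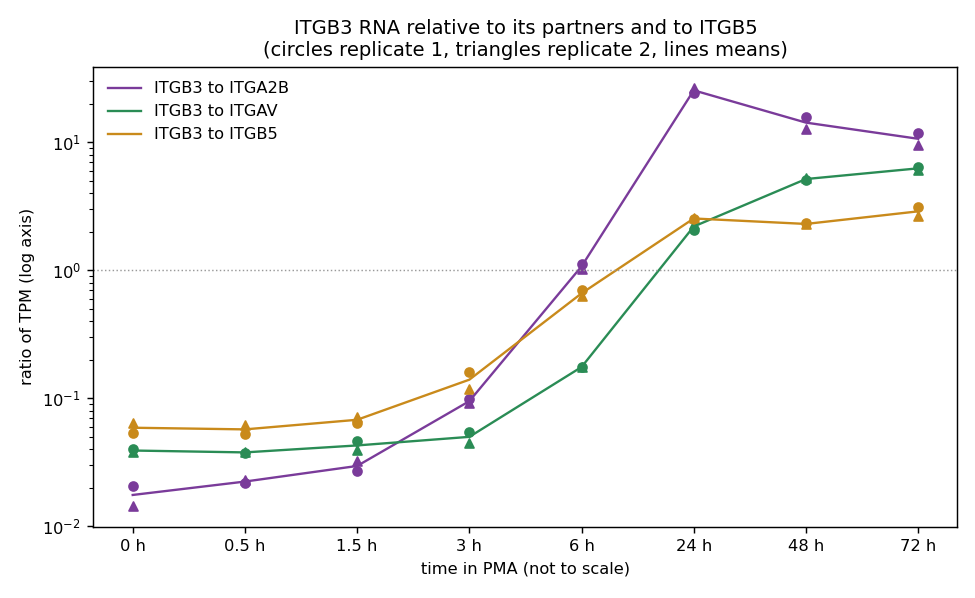
Ratio of ITGB3 TPM to that of its partners ITGA2B and ITGAV and to that of ITGB5 at the 8 time points (log axis), with circles for replicate 1, triangles for replicate 2 and lines through the means. ITGB3 exceeded ITGAV and ITGB5 from 24 h on, and its ratio to ITGA2B was highest at 24 h, at a mean of 25.4.

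ITGAV (αV, chr2:186590065-186680901 on GRCh38, plus strand), the other partner of β3, rose early and peaked at 6 h. Its level was 53.4 and 38.8 CPM at 0 h, 57.3 and 49.4 CPM at 0.5 h, 58.3 and 57.2 CPM at 1.5 h, and 157 and 133 CPM at 3 h. It reached 405 and 378 CPM at 6 h and was then 312 and 287 CPM at 24 h, 238 and 218 CPM at 48 h, and 267 and 193 CPM at 72 h. The 6 h libraries lay above all others. Its log2 fold change from 0 h was 1.65 (SE 0.17, edgeR adjusted p = 3.05e-06) at 3 h, 3.08 (SE 0.17, adjusted p = 3.77e-09) at 6 h and 2.32 (SE 0.17, adjusted p = 4.94e-08) at 72 h. The step from 6 to 24 h was -0.39 (SE 0.16, adjusted p = 0.0536), and 11 of 27 alternative analyses called it lower. The ratio of ITGB3 to ITGAV in TPM was 0.0390 at 0 h, 0.175 at 6 h, 2.19 at 24 h and 6.24 ± 0.23 (SD, n = 2) at 72 h.

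ITGB5 (β5, chr3:124761948-124901418 on GRCh38, minus strand), the beta subunit that pairs with αV alone, rose stepwise to 48 h and was level after that. It was 15.1 and 16.8 CPM at 0 h, 15.2 and 14.4 CPM at 0.5 h, 16.9 and 15.8 CPM at 1.5 h, 24.2 and 20.1 CPM at 3 h, and 48.9 and 47.7 CPM at 6 h. It was 107 and 110.4 CPM at 24 h, 209 and 206 CPM at 48 h, and 210.3 and 206 CPM at 72 h. The libraries of 3, 6, 24 and 48 h followed each other without overlap, and those of 48 and 72 h overlapped. By 72 h the log2 fold change was 3.71 (SE 0.10, edgeR adjusted p = 2.79e-12), and the step from 48 to 72 h was 0.00 (95% interval -0.19 to 0.20). The rise at 3 h (0.48, adjusted p = 0.00145) did not pass when libraries were scaled to total counts (0.19, adjusted p = 0.0744) or in a fit of only the 4 libraries compared (0.46, adjusted p = 0.0946). The ratio of ITGB3 to ITGB5 in TPM was 0.0588 at 0 h and 0.659 at 6 h. It was 2.53 at 24 h, 2.30 at 48 h and 2.88 ± 0.30 (SD, n = 2) at 72 h.

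ITGB1, the β1 gene (chr10:32900319-33005792 on GRCh38, minus strand), was the most abundant of the 10 in TPM at 0 h and at 72 h and rose from 1.5 h on. It was 361 and 281 CPM at 0 h, 412 and 413 CPM at 0.5 h, 415 and 467 CPM at 1.5 h, and 634 and 639.6 CPM at 3 h. It was 1008 and 1081 CPM at 6 h, 1236 and 1337 CPM at 24 h, 1122 and 1185 CPM at 48 h, and 1397 and 1170.4 CPM at 72 h. All libraries from 0.5 h on lay above both at 0 h, and the 72 h libraries overlapped those of 24 h and of 48 h. Against 0 h it was higher by 0.99 (SE 0.13, edgeR adjusted p = 2.50e-05) at 3 h, 1.70 (SE 0.13, adjusted p = 6.17e-08) at 6 h and 2.00 (SE 0.13, adjusted p = 1.32e-08) at 72 h, all on the log2 scale. The call at 1.5 h (0.46, adjusted p = 0.0238) was lost without 0 h replicate 2 (0.28, adjusted p = 0.246), without 1.5 h replicate 1 (0.54, adjusted p = 0.0549) and without 1.5 h replicate 2 (0.37, adjusted p = 0.185). It was also lost with the GC trend removed (0.21, adjusted p = 0.0626).

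ITGA5, the α5 gene of the fibronectin receptor (chr12:54395261-54419460 on GRCh38, minus strand), first fell and then rose. It was 149 and 183 CPM at 0 h, 147 and 134 CPM at 0.5 h, 99.9 and 100.4 CPM at 1.5 h, and 94.9 and 75.9 CPM at 3 h. It was 237 and 223 CPM at 6 h, 787 and 799 CPM at 24 h, 568 and 554 CPM at 48 h, and 611 and 584 CPM at 72 h. The 1.5 h and 3 h libraries lay below both at 0 h, and those from 6 h on lay above. Its log2 fold change was -0.73 (SE 0.12, edgeR adjusted p = 0.00120) at 1.5 h, -0.96 (SE 0.12, adjusted p = 1.97e-05) at 3 h, 2.26 (SE 0.12, adjusted p = 2.37e-09) at 24 h and 1.85 (SE 0.12, adjusted p = 1.41e-08) at 72 h. The 6 h difference was 0.47 (SE 0.12, adjusted p = 0.00306), and 0.11 when scaled to total counts (adjusted p = 0.332). Beside it, the coding transcript ITGA5-201 stood at 54.2 and 45.4 TPM at 6 h, which overlapped its 53.1 and 60.3 TPM at 0 h. Transcripts of ITGA5 not annotated as protein coding held 58.5% of its TPM at 6 h, against 21.5% at 0 h and 20.9% at 24 h.

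The balance of α5 and αV RNA turned over and back. The ratio of ITGA5 to ITGAV in TPM was 3.88 and 4.70 at 0 h, 0.745 and 0.762 at 3 h, 1.20 and 1.096 after 6 h, and 3.57 and 3.82 after 24 h. In these gene totals the 3 h libraries were the only ones below 1. On protein-coding transcripts alone, mean ITGA5 was below mean ITGAV at 6 h as well. These means were 22.2 and 33.2 TPM at 3 h, 49.8 and 83.5 TPM at 6 h, and 252 and 76.8 TPM at 24 h. At 72 h the ratio of gene totals was 3.56 and 3.91, which overlapped the 0 h values. Of the alpha genes followed here, 5 can pair with β1 (ITGA2, ITGA4, ITGA5, ITGA6 and ITGAV). Their summed TPM was 0.531 ± 0.080 (SD, n = 2) of the ITGB1 TPM at 0 h and 0.320 ± 0.023 (SD, n = 2) at 3 h. It was 0.760 ± 0.079 (SD, n = 2) at 24 h and 0.644 ± 0.008 (SD, n = 2) at 72 h. Other alpha genes were left out of this sum, among them ITGA3 and ITGA9. The mean level of ITGA3 was 6.00 CPM at 0 h and 85.0 CPM at 72 h, and that of ITGA9 was 0.0621 and 1.13 CPM. Because αV also pairs with β3 and β5, the ratio does not measure the alpha subunits available to β1.

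ITGA2, the α2 gene of the collagen receptor α2β1 (chr5:52989326-53094779 on GRCh38, plus strand), rose from near 1 CPM, chiefly between 3 and 24 h. It was 1.23 and 1.16 CPM at 0 h (40 and 36 reads), 1.19 and 1.06 CPM at 0.5 h, 1.20 and 1.07 CPM at 1.5 h, and 2.22 and 2.48 CPM at 3 h. It was 25.5 and 23.8 CPM at 6 h, 118 and 116 CPM at 24 h, 112 and 111 CPM at 48 h, and 162 and 139.6 CPM at 72 h. The libraries to 1.5 h overlapped, and those from 3 h on were all higher. Its log2 fold change was 0.97 (SE 0.15, edgeR adjusted p = 1.47e-04) at 3 h, 4.36 (SE 0.13, adjusted p = 6.59e-12) at 6 h and 6.97 (SE 0.13, adjusted p = 1.05e-13) at 72 h. The step from 24 to 48 h was -0.07 (95% interval -0.26 to 0.12). The step from 48 to 72 h was 0.44 (SE 0.09, adjusted p = 0.0288), and it did not pass when any 1 of 9 libraries was left out (either at 0.5, 6, 24 or 48 h, or 72 h replicate 1), with adjusted p from 0.0536 to 0.288.

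ITGA6, the α6 gene of the laminin receptors (chr2:172427354-172506282 on GRCh38, plus strand), was the latest of the 10 to reach a high level. It had 0 and 2 reads at 0 h, 6 and 3 reads at 0.5 h, 3 and 1 reads at 1.5 h, 6 and 13 reads at 3 h, and 45 and 57 reads at 6 h. It had 61 and 89 reads at 24 h, 358 and 407 reads at 48 h, and 3022 and 2390 reads at 72 h. In CPM that was 1.92 and 2.02 at 6 h, 1.97 and 1.85 at 24 h, 10.9 and 11.4 after 48 h, and 84.2 and 74.7 after 72 h. The 6 and 24 h libraries overlapped, and the 48 and 72 h libraries stood clear of all before them. The 5412 reads at 72 h against 2 at 0 h gave a ratio of 2537 after scaling, with an exact 95% interval of 702 to 20954 that covers counting error only. The steps were 2.55 (SE 0.22, edgeR adjusted p = 6.93e-06) from 24 to 48 h and 2.83 (SE 0.20, adjusted p = 2.28e-05) from 48 to 72 h on the log2 scale. The call at 3 h against 0 h (adjusted p = 0.00486) was lost without 3 h replicate 2 (adjusted p = 0.0694), which held 13 of the 19 reads. Both later steps passed under every alternative that gave them a test.

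The 2 known forms of α6 differ in the cytoplasmic tail, through an alternative exon near the 3′ end. The coding bases of that stretch are shown for both, on the plus strand of chromosome 2 (GRCh38, from the GENCODE release 29 transcripts), because reads for both were assigned at 72 h. ITGA6-201 ends its coding sequence in the alternative exon (105 coding bases, chr2:172501772-172501876), and ITGA6-202 skips it and ends in the next (159 coding bases, chr2:172504091-172504249). Capitals mark the 5 bases that both begin with.
ITGA6-201: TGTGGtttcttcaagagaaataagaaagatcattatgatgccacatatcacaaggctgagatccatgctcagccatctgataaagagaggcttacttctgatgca
ITGA6-202: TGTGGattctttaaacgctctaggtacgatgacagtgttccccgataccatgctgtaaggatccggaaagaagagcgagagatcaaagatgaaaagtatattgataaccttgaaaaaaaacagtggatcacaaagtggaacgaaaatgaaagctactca
At 72 h transcripts with the exon summed to 15.3 and 12.2 TPM and those without it to 8.72 and 9.01 TPM. The form with the exon thus held 63.7% and 57.5% of the TPM that could be assigned to either. At 48 h it held 78.5% and 84.2%, above both 72 h libraries, on 281 and 396 reads with the exon and 68.2 and 8.55 reads without it. Salmon assigned these reads by its model, and the shares were not tested. At 24 h and before, the reads were too few to divide (41.0 and 0 reads with the exon at 24 h, 17.6 and 89 without).

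**Figure D4:**
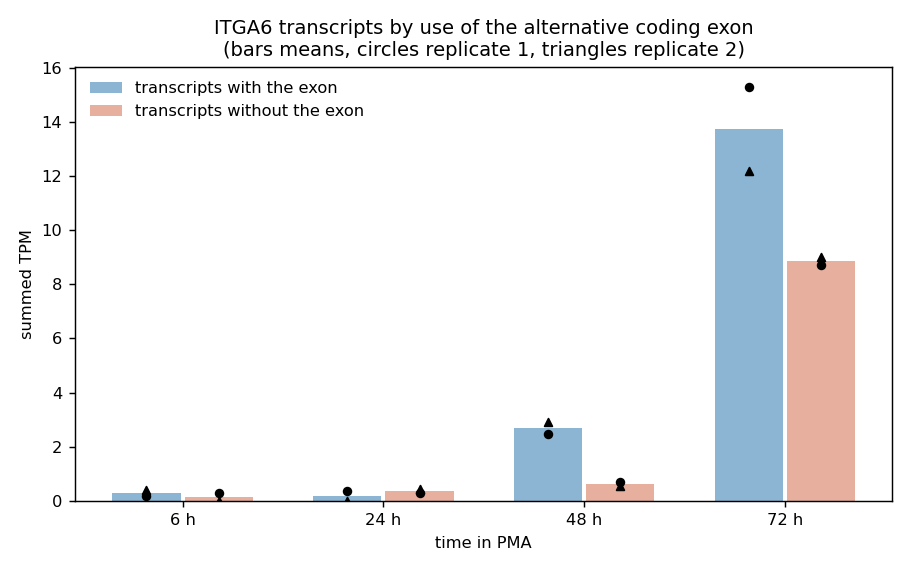
Summed TPM of ITGA6 transcripts with and without the alternative coding exon at 6, 24, 48 and 72 h, bars for means, circles for replicate 1 and triangles for replicate 2. At 72 h both forms were present, at 15.3 and 12.2 TPM with the exon and 8.72 and 9.01 TPM without it.

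ITGA4, the α4 gene (chr2:181457202-181536187 on GRCh38, plus strand), was low throughout and was lower from 24 h on. Its level was 1.81 and 1.42 CPM at 0 h (59 and 44 reads), 1.901 and 1.72 CPM at 0.5 h, 1.51 and 2.11 CPM at 1.5 h, and 1.21 and 1.24 CPM at 3 h. It was 1.11 and 0.673 CPM at 6 h, 0.678 and 0.415 CPM at 24 h, 0.701 and 0.530 CPM at 48 h, and 0.613 and 0.375 CPM at 72 h (22 and 12 reads). All libraries from 3 h on lay below both at 0 h. Its log2 fold change was -1.59 (SE 0.34, edgeR adjusted p = 0.00119) at 24 h and -1.69 (SE 0.35, adjusted p = 8.30e-04) at 72 h. The call at 6 h (-0.87, adjusted p = 0.0392) was lost without 6 h replicate 2 (-0.53, adjusted p = 0.307) and without 0 h replicate 1 (-0.68, adjusted p = 0.183). It was also lost without 0.5 h replicate 1 (adjusted p = 0.0521) or 0.5 h replicate 2 (adjusted p = 0.0515), and with DESeq2 (adjusted p = 0.120).

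ITGB2, the leukocyte β2 gene (chr21:44885953-44931989 on GRCh38, minus strand), was at trace level, with at most 61 reads in a library. It had 33 and 39 reads at 0 h, 54 and 6 reads at 0.5 h, 35 and 61 reads at 1.5 h, and 10 and 1 reads at 3 h. It had 27 and 8 reads at 6 h, 12 and 12 reads at 24 h, 45 and 12 reads at 48 h, and 2 and 14 reads at 72 h. Libraries of 1 time differed by several fold at 0.5, 3, 6, 48 and 72 h, and no comparison passed the test. The difference at 3 h was -2.78 (SE 1.12, edgeR adjusted p = 0.0560), and 14 of 26 alternative analyses called it lower. At 72 h it was -2.23 (SE 1.02, adjusted p = 0.0785), and 5 of 26 alternative analyses called it lower, among them that without 72 h replicate 2 (-4.25, adjusted p = 0.0426).

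Per length, the order of the 10 genes changed over the course. At 0 h it was ITGB1 (171 ± 20 TPM, SD, n = 2), ITGA5 (72.2 ± 4.4), ITGA2B (38.4 ± 5.9), ITGAV (16.9 ± 1.3) and ITGB5 (11.4 ± 2.5), followed by ITGB2, ITGA4, ITGB3, ITGA2 and ITGA6 at 1.38 TPM and below. At 24 h ITGB1 (568 ± 8 TPM, SD, n = 2) was followed by ITGA5 (319 ± 35), ITGB3 (189 ± 15), ITGAV (86.7 ± 13.5), ITGB5 (74.6 ± 6.2), ITGA2 (24.7 ± 2.2) and ITGA2B (7.49 ± 1.15). At 72 h it was ITGB1 (638 ± 16 TPM, SD, n = 2), ITGB3 (457 ± 43), ITGA5 (273 ± 2), ITGB5 (159 ± 2), ITGAV (73.3 ± 4.2), ITGA2B (43.3 ± 2.8), ITGA2 (36.4 ± 3.3) and ITGA6 (27.5 ± 0.5). Neighbours in these orders had libraries that did not overlap, except ITGAV and ITGB5 at 24 h, and ITGB2 and ITGA4 at 24 h and 72 h. ITGA2B thus stood at rank 3 at 0 h, rank 7 at 24 h and rank 6 at 72 h, while ITGB3 moved from rank 8 to rank 2. Together the 10 genes took 0.0648 to 0.0725% of the matched reads at 0 h and 0.356 to 0.387% at 72 h.

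The 0 h libraries themselves differed in the integrin genes, and the ratios are given here beside base composition. Whether they followed it was not tested. The ratios of ITGB3 (57 and 40 reads), ITGA4 (59 and 44), ITGA2 (40 and 36) and ITGB2 (33 and 39) rest on few reads. Replicate 2 held less than replicate 1 of ITGAV (a ratio of 0.727, transcripts of 39.3% GC), ITGB1 (0.777, 39.5%), ITGA4 (0.782, 44.7%) and ITGB3 (0.736, 52.3%). It held more of ITGB5 (1.11, 54.4%), ITGA5 (1.23, 58.3%), ITGB2 (1.24, 60.2%) and ITGA2B (1.20, 61.0%), and ITGA2 was near even (0.944, 40.7%). At 0.5 h, the log2 fold changes without 0 h replicate 1 were 0.56 for ITGB1, -0.44 for ITGA2B and -0.38 for ITGA5. With it they were 0.36, -0.32 and -0.24. ITGA6, with 0 and 2 reads at 0 h, has no finite log2 ratio between these libraries and is left out of what follows. From 24 h on, every other called change against 0 h was larger than the gap between the 0 h libraries. The smallest was that of ITGA2B at 48 h (-0.78 on the log2 scale), and the largest gap was that of ITGAV (-0.46). Calls already weigh a change against a spread that includes the 0 h libraries, so this comparison is a description and not a test.

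**Figure D5:**
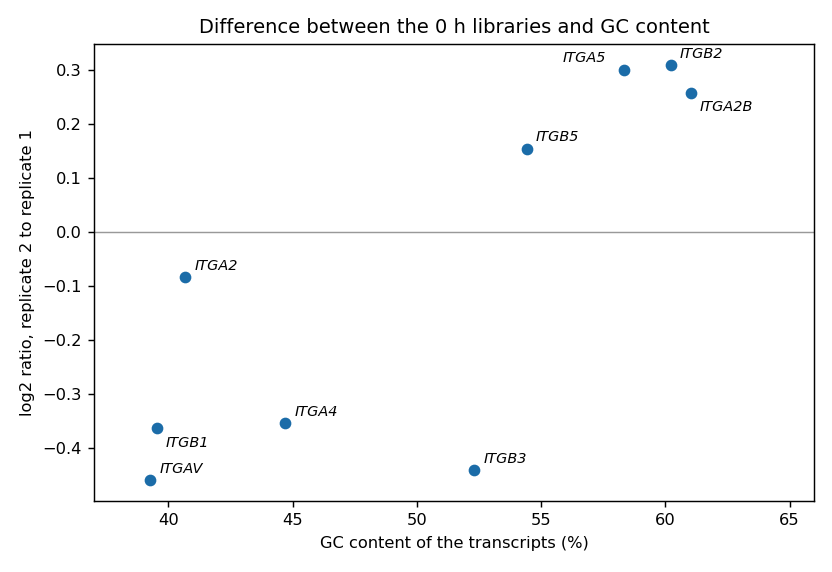
Log2 ratio of replicate 2 to replicate 1 at 0 h (y axis) against the GC content of the gene's transcripts in % (x axis) for 9 integrin genes, without ITGA6, which had 0 reads in 1 library. The genes from ITGAV (39.3%) to ITGB3 (52.3%) lie below 0 and those from ITGB5 (54.4%) to ITGA2B (61.0%) above 0.

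Successive times were compared as well. From 0.5 to 1.5 h 1 of the 10 passed, ITGA5 lower, where 5.77% of all genes did (4.11% higher and 1.67% lower). It did not pass in 6 of 27 alternative analyses. From 1.5 to 3 h 6 passed, where 25.1% did, all higher (13% of all genes were). From 3 to 6 h 8 passed, where 41.2% did, 7 higher (19%) and ITGA2B lower (22.1%). From 6 to 24 h 5 passed, where 56.6% did: ITGB3, ITGA2, ITGA5 and ITGB5 higher (30.8%) and ITGA2B lower (25.8%). From 24 to 48 h it was 5, where 15% did: ITGA2B, ITGB3, ITGA6 and ITGB5 higher (8.88%) and ITGA5 lower (6.12%). The last step, from 48 to 72 h, had 3, where 1.47% did: ITGA6, ITGA2B and ITGA2, all higher (1.14%). The ITGA2B step from 3 to 6 h (-0.36, edgeR adjusted p = 0.0152) did not pass without 3 h replicate 1 (-0.21, adjusted p = 0.181), 6 h replicate 1 (adjusted p = 0.0607) or 6 h replicate 2 (adjusted p = 0.104). The ITGA5 step from 24 to 48 h (-0.50, edgeR adjusted p = 0.0104) did not pass without 24 h replicate 2 (adjusted p = 0.0895), 48 h replicate 1 (adjusted p = 0.0653) or 48 h replicate 2 (adjusted p = 0.0829).

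Of the 16 other human integrin subunit genes 15 were tested, and 9 passed at 72 h, beside 58.6% of all genes. Of the 9, 7 were higher (31.7% of all genes were) and 2 lower (26.9%). The median log2 fold change of the 15 was -0.08 (all genes -0.03). ITGAX, the alpha subunit of a β2 integrin of myeloid cells, rose from 3.72 ± 0.21 CPM (SD, n = 2) to 130.2 ± 14.6 CPM at 72 h (log2 fold change 5.13, edgeR adjusted p = 1.27e-12), while its beta partner ITGB2 had 2 and 14 reads there. ITGA9, which pairs with β1, had 1 and 3 reads at 0 h and 60 and 68 reads at 3 h (adjusted p = 9.19e-06). ITGB4, the partner of α6 in epithelial laminin receptors, was lower at 6 h (-1.61, adjusted p = 0.00102), at 0.897 ± 0.183 CPM (SD, n = 2) against 2.77 ± 1.23 CPM at 0 h. ITGB4 was then higher than at 0 h, by 1.43 at 48 h (adjusted p = 8.15e-04) and by 1.93 at 72 h (mean 10.6 CPM, adjusted p = 5.83e-05). ITGAM, the alpha subunit of a further β2 integrin, was lower at 24 h (-1.24, adjusted p = 8.75e-04), at 1.06 ± 0.32 CPM (SD, n = 2) against 2.56 ± 0.75 CPM. Before that ITGAM was higher at 3 h (0.69, adjusted p = 0.0311), and at 72 h its difference was -0.13 (adjusted p = 0.661).

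Proteins that link integrins to actin or switch them on, form a list of 30 genes, all tested. At 72 h 24 of the 30 passed (beside 58.6% of all genes), 20 higher (31.7% of all genes were) and 4 lower (26.9%). The median log2 fold change of the 30 was 1.19 (all genes -0.03). At 6 h 26 passed (beside 57.2%), 17 higher (27.8%) and 9 lower (29.4%). FLNA, the actin crosslinker filamin A, was the most abundant and rose from 1197 ± 132 CPM (SD, n = 2) to 3323 ± 18 CPM at 72 h (1.47, edgeR adjusted p = 5.83e-07). TNS1, the focal adhesion protein tensin, rose from 4.89 ± 1.45 CPM (SD, n = 2) to 126.8 ± 18.5 CPM at 72 h (4.70, adjusted p = 1.85e-08), after a lower level at 6 h (-1.23, adjusted p = 0.0104). FERMT1, a kindlin that binds beta tails, had 0 reads in both 0 h libraries and 22 to 37 reads at 72 h. RASGRP2, the exchange factor for RAP1 that activates αIIbβ3 in platelets, was lower at 6 h (-2.33, adjusted p = 8.93e-07), at 1.81 ± 0.10 CPM (SD, n = 2) against 9.07 ± 1.24 CPM at 0 h, and its difference at 72 h was 0.47 (adjusted p = 0.0550). RASGRP1, a related exchange factor, fell from 12 and 25 reads at 0 h to 3 and 4 reads at 24 h (-2.64, adjusted p = 0.00387), and its difference at 72 h was -0.38 (adjusted p = 0.559).

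Of 25 genes for integrin ligands and counter-receptors, 19 were tested and 16 of these passed at 72 h (beside 58.6% of all genes). Of the 16, 14 were higher (31.7% of all genes were) and 2 lower (26.9%). The median log2 fold change of the 19 was 2.54 (all genes -0.03). THBS1 (thrombospondin 1, bound by β3 integrins) rose from 3.53 ± 0.01 CPM (SD, n = 2) to 4593 ± 456 CPM at 72 h (10.34, edgeR adjusted p = 4.47e-13). VWF (von Willebrand factor, bound by αIIbβ3) had 0 reads in both 0 h libraries and 61 to 65 reads at 72 h. ICAM2, a ligand of β2 integrins, was lower at 6 h (-2.77, adjusted p = 2.77e-08), at 3.16 ± 1.02 CPM (SD, n = 2) against 21.3 ± 4.6 CPM. Later ICAM2 was higher than at 0 h, by 0.54 at 48 h (adjusted p = 0.0119) and by 0.89 at 72 h (mean 39.6 CPM, adjusted p = 3.23e-04). LAMA5, a laminin alpha chain bound by α6 and α3 integrins, was lower at 72 h (-1.26, adjusted p = 2.89e-05), at 53.7 ± 14.1 CPM (SD, n = 2) against 129 ± 23 CPM.

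The genes whose log2 CPM followed αIIb and β3 most closely over the 16 libraries were sought among the 11269 genes whose mean reached 5 CPM, as a description, since the libraries share their time points. For ITGA2B they were LGALS3BP (Pearson r = 0.983), TREML2 (0.965) and CD22 (0.939). LGALS3BP, a secreted galectin-binding protein, averaged 11.8 CPM at 0 h, 2.26 CPM at 24 h and 11.1 CPM at 72 h. For ITGB3 they were the kinase gene LRRK2 (Pearson r = 0.998), LRRC38 (0.997) and SIPA1L1 (0.997). LRRK2 averaged 3.18 CPM at 0 h, 33.7 CPM at 24 h and 47.7 CPM at 72 h.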

How the data were processed

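RNA of K562 cells was measured by sequencing after ribosomal RNA depletion, in 16 libraries. Per the file headers, the deposited tables give for each of 177456 transcripts an estimated count of reads and TPM, with the column names of Salmon. Salmon (no version) and Trim Galore 0.4.3 are named in the submitters' processing notes, which also list HISAT2 2.1.0, SAMtools 1.9 and the builds hg19 and hg38 without roles. Whether the counting used strand is not given in the sources used here.

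Transcripts were matched by Ensembl identifier to GENCODE release 29 (GRCh38). Of these 167027 (94.1%) matched, in 35052 genes, and the rest held 3.01 to 3.75% of reads. Estimated counts, as deposited, were summed per gene and rounded. The deposited TPM values were summed per gene and used for levels between genes and for transcripts. Counts were fitted with edgeR 4.0.16 (R 4.3.3): TMM factors of 0.854 to 1.14, filterByExpr (17559 genes), time point as the only factor, all 16 libraries, quasi-likelihood tests, Benjamini-Hochberg adjustment over all genes tested and a threshold of 0.05. An exact permutation test of 2 against 2 libraries cannot go below p = 0.333. Alternatives included DESeq2 1.42.0, other scalings, filters and gene counts, a GC correction, a replicate block and leaving out each library.

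Same-numbered libraries correlated in their deviations from the group means at -0.118 to 0.211 (median 0.0978) over 28 pairs of time points, so the numbers were not taken to pair them. The median difference between length and effective length of long transcripts was 210 to 221 bases in replicate 1. It was 229 to 248 bases in replicate 2, except 199 bases at 0 h, in the library with the largest unmatched share of reads (3.75%). The part of this difference in the results was not tested. All 10 integrin genes are named. From each other list the text names the largest called change at 72 h, the 2 largest called rises and falls at any time and the most abundant gene, and for ITGA2B and ITGB3 the 3 genes of highest correlation. The integrin genes and the lists were chosen with earlier results of these data known.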

Additional observations from a re-analysis of the deposited data

How the results depend on the processing

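The 130 values (10 integrin genes in 13 comparisons) were recomputed under 29 alternatives, 27 of them with a test, or 1 to 2 fewer for ITGA6 and ITGB2. Of 3478 alternative values with a test 3333 kept their call, 55 lost it, 90 gained one and 0 called values changed sign. The count of integrin genes called at 0.5 h against 0 h was 0 and ranged from 0 to 3 when 1 library was left out. At 1.5 h against 0 h it was 2, and 1 to 4 when 1 library was left out, 1 with the GC trend removed, 1 at an adjusted p under 0.01 and 1 in a fit of only the 4 libraries compared. From 0.5 to 1.5 h it was 1 (ITGA5), and 0 to 1 when 1 library was left out, 0 with length-scaled TPM counts and 0 at an adjusted p under 0.01. From 48 to 72 h it was 3, and 1 with length-scaled TPM counts and 5 with a replicate block and the GC trend removed. The other counts stayed within 1.5 times. Over all genes, the calls ranged from 12 to 3585 (30 as reported) at 0.5 h, 1006 to 5008 (3003) at 1.5 h, 427 to 2473 (1014) from 0.5 to 1.5 h, 4823 to 8956 (7370) at 3 h, 2817 to 6809 (4408) from 1.5 to 3 h, 1115 to 4957 (2633) from 24 to 48 h and 37 to 1282 (258) from 48 to 72 h. A replicate block alone moved no count of integrin genes by over 1.5 times and added 5 calls: ITGAV higher at 1.5 h (adjusted p = 0.0481) and lower from 6 to 24 h (0.00796) and from 24 to 48 h (0.0249), and ITGB2 lower at 3 h (0.0372) and from 1.5 to 3 h (0.0302). The counts were then 3 at 1.5 h and 8 at 3 h against 0 h, and 7, 6 and 6 for the steps from 1.5 to 3 h, 6 to 24 h and 24 to 48 h. Of the 28 pairs of same-numbered libraries 14 correlated at over 0.1. At each of the 8 time points, the replicate 1 deviation had a summed correlation above 0 with those of the other times. Replicate 2 deviations mirror these, as each time has 2 libraries. This is a hint from the data and not from the design. Scaling to total counts moved every gene down against 0 h on the log2 scale, by -0.28 (3 h), -0.37 (6 h), -0.25 (24 h) and -0.16 (48 h and also 72 h). Depth limited ITGB2, ITGA4 and ITGA6 before 24 h, and 3 reads, the limit that a count of 0 allows, came to 0.0623 to 0.128 CPM.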
